A study of Mus musculus with 6 samples.

Results

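The Notch ligands and receptors of the mouse were examined in whole pancreas at embryonic stage E12.5. The group comprised 6 ligand genes, Dll1, Dll3, Dll4, Jag1, Jag2 and Dlk2, and 4 receptor genes, Notch1, Notch2, Notch3 and Notch4. Members were chosen by name alone: every probe set of the array whose annotation gave a single gene symbol, and that symbol 1 of these 10, was taken. This gave 20 probe sets out of 45037, and the 10 genes stood among 18193 singly named genes. Each of the 10 genes was measured by 1 to 3 probe sets.

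The study compared 3 Hox6 null pancreas samples with 3 control samples, each on its own array. The Hox6 null embryos carried the Bl6 strain label and the genotype Hox6 null, where Hox6 stands for the paralogous homeobox genes Hoxa6, Hoxb6 and Hoxc6. The control embryos were wild type, also of strain Bl6, and the stage was E12.5 in both groups. Replicates are labelled as biological ones. Litter, pooling, sex and the disrupted part of each Hox gene are not stated, and the p-values reflect the spread among these 6 samples alone.

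Notch signalling passes between neighbouring cells. Ligands of the Delta-like and Jagged families on one cell bind Notch receptors on the next, which are then cleaved, and the freed intracellular part joins the DNA-binding protein Rbpj to switch on Hes and Hey genes. In the embryonic pancreas, Dll1 marks progenitors that enter the endocrine lineage, and Notch activity in their neighbours keeps those in the progenitor state. In vessels, Dll4 and Notch4 are typical of endothelium, while Notch3 is typical of the mural cells around it.

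The arrays carry log2 values after RMA, so a difference of 1 is a doubling of signal, values of different probe sets are not comparable with each other, and changes of dim probe sets are understated. Array medians lay between 5.97 and 6.02. Null arrays correlated with each other at 0.980 to 0.987 over all probe sets (Pearson), and control arrays at 0.994 to 0.995. Null replicate 3 stood apart from null replicates 1 and 2: on the first principal component, with 46.6% of the variance, it lay at 14.9 and the other null arrays at -61.7 and -36.0, against 22.9 to 30.0 in controls. Hoxb6, 1 of the targeted genes, read 8.25, 8.71 and 8.91 in null arrays, against 8.78, 8.97 and 9.36 in controls, with overlap. For Hoxc6 the difference, null minus control, was 0.47, 0.73 and 0.13 in its 3 probe sets, none past the threshold. The probe set at 0.73 read 4.59 to 5.38 in null arrays and 3.91 to 4.25 in controls, without overlap. It and the probe set at 0.47 lay below the array medians. A probe set outside the disrupted part checks nothing, and Hoxa6 was not analysed here. The tissue label was checked with Pdx1 and Ptf1a, pancreatic progenitor factors. Pdx1 read 8.78 to 9.97 in null arrays and 8.24 to 8.62 in control arrays in its brighter probe set, and 8.05 to 9.24 against 7.82 to 8.12, with overlap, in the other. Ptf1a read 7.50 to 8.58 in null arrays and 7.34 to 7.85 in controls, with overlap. In a whole organ, fewer cells of a type and less RNA per cell cannot be told apart.

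None of the 10 genes passed the test, although 8 of them were higher on average in Hox6 null pancreas. The test was limma with Benjamini-Hochberg adjustment over all 18193 genes at 0.05, with a gene represented by its brightest probe set. Adjusted p-values of the members lay between 0.166 and 0.771. Of all genes 0.0715% passed, 0.0055% higher and 0.066% lower in null, and 17.0% had an unadjusted p under 0.05, as did 3 of the 10 members, Dll1, Dll3 and Notch2. The median difference was 0.25 over the members and 0.03 (0.0331) over all genes, of which 56.0% were positive. Null and control arrays did not overlap for 4 members, Dll1, Dll3, Notch1 and Notch2, all higher in null. Over all genes that share was 23.8%, of which 12.2% of genes were higher and 11.7% lower in null.

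**Figure D1:**
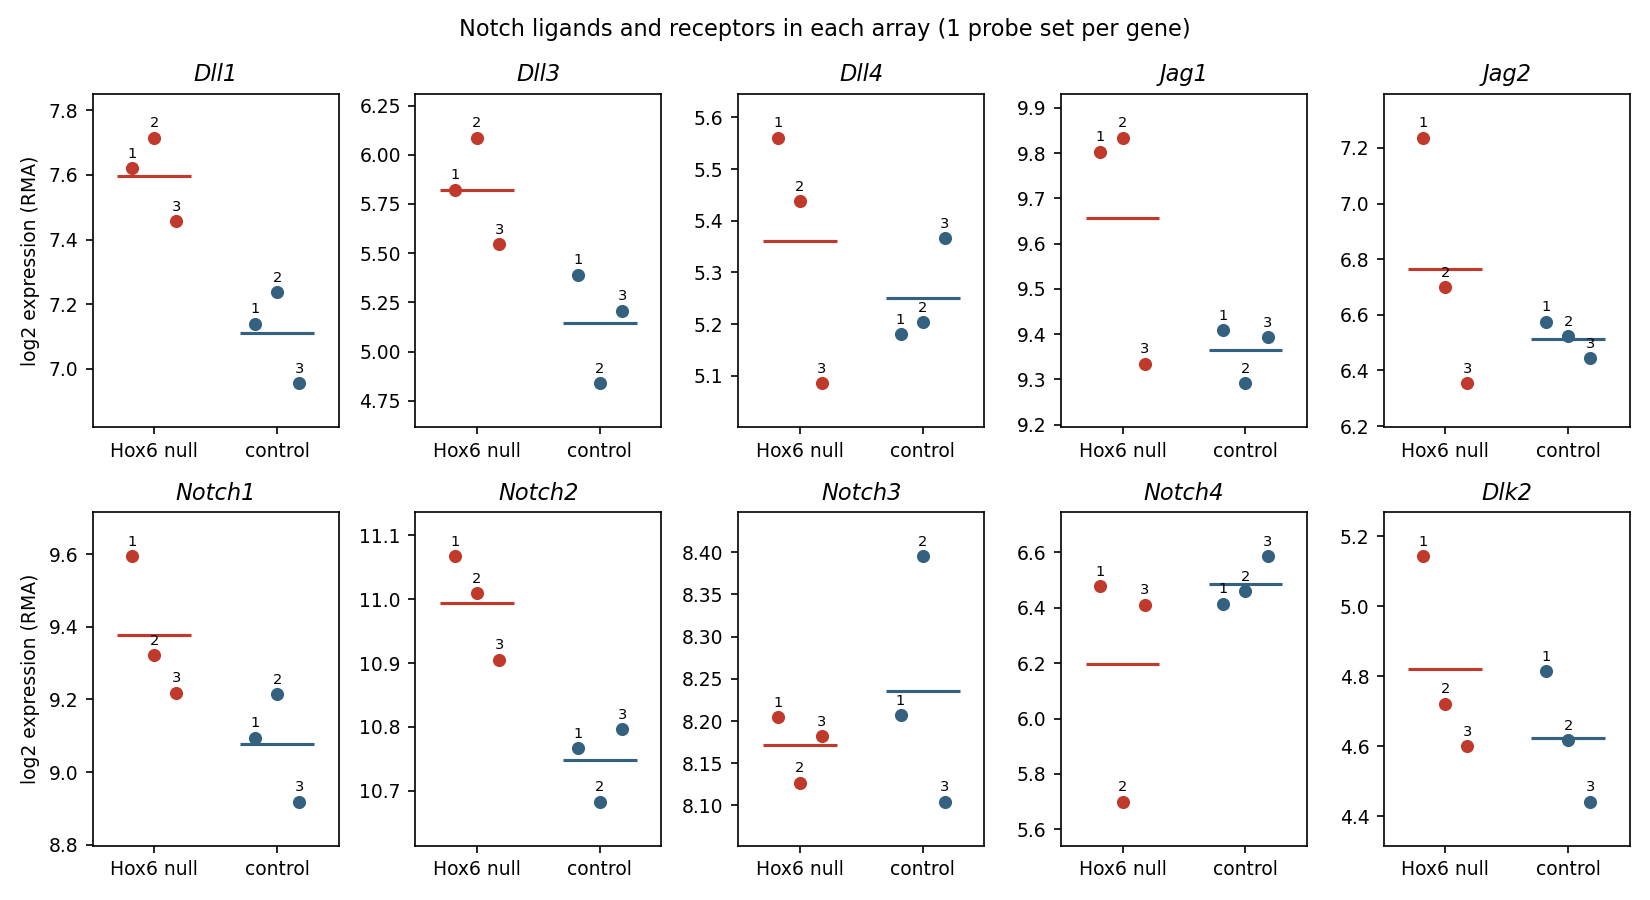
Log2 expression (RMA, vertical axis, scaled separately in each panel) of the 10 genes in Hox6 null and control arrays; points are arrays numbered by replicate and bars are group means. The null points of Dll1, Dll3, Notch1 and Notch2 lie above all control points, and those of the other 6 genes overlap them.

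The Delta-like ligands of the epithelium were higher in every null array. Dll1, which activates Notch on adjacent cells, read 7.62, 7.72 and 7.46 in Hox6 null replicates 1, 2 and 3, against 7.14, 7.24 and 6.96 in control replicates 1, 2 and 3. All 3 null arrays lay above all 3 controls, and null 3 was the lowest of the null arrays. The difference was 0.49 ± 0.12 (SE), or 1.40-fold, with a 95% interval of 0.21 to 0.77 and an adjusted p of 0.166 (limma). Dll3, a divergent family member that stays inside the cell and does not activate receptors on neighbours, read 5.82, 6.09 and 5.55 in null arrays, against 5.39, 4.84 and 5.21 in controls. These groups did not overlap either, but null 3 exceeded control 1 by only 0.16, and the probe set was near or below the array medians. The difference of 0.67 ± 0.19 (SE), or 1.59-fold, was the largest of the 10 members and had an adjusted p of 0.192 (limma). Each of these genes has a single probe set, so the values have no second reading on the array.

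Both ligands were set beside the markers of the cells that carry them. The 12 epithelial markers, such as Cdh1 and Epcam, averaged 9.56, 9.46 and 8.68 in null arrays, against 8.71, 8.66 and 8.69 in controls. Null 3 therefore lay within the control range for epithelium but above it for Dll1 and Dll3. Of these markers 11 of 12 were higher on average in null, with a median difference of 0.55. All 11 measured pancreatic progenitor markers were higher on average in null, their mean being 8.83, 8.53 and 7.79 in null arrays, against 7.84, 7.70 and 7.53 in controls, with null 3 among the controls. The 11 measured markers of endocrine progenitors, such as Neurog3 and Neurod1, averaged 7.49, 7.40 and 6.99 in null arrays, against 6.99, 6.55 and 6.75 in controls, and 10 of 11 were higher on average in null. On this scale null 3 and control 1 were nearly equal. Relative to the epithelial mean of the same array, Dll1 deviated from its control mean by -0.37, -0.18 and 0.35 in null arrays and by 0.0055, 0.15 and -0.16 in controls. Dll3 did so by -0.20, 0.16 and 0.40, against 0.22, -0.28 and 0.061. Relative to the endocrine progenitor mean, Dll1 deviated by -0.22, -0.036 and 0.11 in null arrays, against -0.20, 0.34 and -0.14 in controls. On that scale Dll3 deviated by -0.051, 0.30 and 0.17, against 0.019, -0.091 and 0.072. In all of these comparisons null and control arrays overlapped. With the epithelial level as a covariate, the difference was 0.36 ± 0.15 (SE) for Dll1 and 0.40 ± 0.23 (SE) for Dll3 (limma, adjusted p = 0.458 and 0.582). The epithelial mean lay above the controls only in null 1 and null 2. Differences in this fit, here and below, thus rest mostly on null 3. Null 3 itself deviated from the control mean by 0.35 for Dll1 and 0.40 for Dll3. Over the full set of alternatives the adjusted p ran from 0.0416 to 1.0 for Dll1 and from 0.0456 to 1.0 for Dll3.

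Nerve cells and glia, which can also carry Delta-like ligands, were checked as well. The 9 measured markers of neural crest and neurons averaged 6.78, 6.69 and 7.24 in null arrays, against 6.84, 6.59 and 6.67 in controls. This mean was highest in null 3. Of the 9, 6 were higher on average in null. Arrays did not overlap for 3 of them, all higher, which is 33.3% against 23.8% of all genes. Among null arrays, Dll1 and Dll3 were lowest there, but highest there relative to the epithelial mean (0.35 and 0.40). The part of these cell types in the ligand values was not tested.

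In their brightest probe sets the Jagged ligands were higher in null 1 and null 2 and at control level or below in null 3, where the epithelial markers too were at control level. Jag1, which activates Notch and is required for bile duct development, had 3 probe sets, all with a positive difference. Its brightest one read 9.80, 9.83 and 9.33 in null arrays, against 9.41, 9.29 and 9.39 in controls. Null 1 and null 2 lay above every control while null 3 lay among them. The difference was 0.29 ± 0.15 (SE) with an adjusted p of 0.360 (limma). Values of further probe sets come from the fit over all probe sets. The second, 1421106_at, read 9.38, 9.56 and 8.93 in null arrays, against 8.89, 8.76 and 8.65 in controls, without overlap, and differed by 0.52 ± 0.17 (SE). The third, 1421105_at, read 9.30, 9.49 and 8.71 in null arrays, against 8.85, 8.88 and 8.62 in controls, and differed by 0.38 ± 0.21 (SE). In all 3 probe sets null 3 was the lowest null array, by between 0.50 and 0.78 relative to the highest. Relative to the epithelial mean of the same array, the brightest one deviated from its control mean by -0.44, -0.31 and -0.030 in null arrays. Controls deviated by 0.0215, -0.049 and 0.028, with overlap. Relative to the pancreatic progenitor mean these were -0.71, -0.37 and -0.13, against -0.11, -0.081 and 0.19, without overlap. With the epithelial level as a covariate the difference of the brightest probe set turned to -0.027 ± 0.12 (SE), with an adjusted p of 0.965 (limma), its adjusted p over the alternatives running from 0.0422 to 1.0.

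Jag2, a ligand with roles in limb and palate development, read 7.24, 6.70 and 6.35 in null arrays, against 6.57, 6.52 and 6.44 in controls. Null 1 and null 2 stood above all controls, and null 3 stood below them. The difference of 0.25 ± 0.21 (SE) shrank to 0.014 (0.0135) without null 1. Its other probe set read 6.11, 6.31 and 5.84 in null arrays, against 5.94, 5.84 and 6.05 in controls, where null 2 was the highest array. Relative to the epithelial mean of the same array, Jag2 deviated from its control mean by -0.16, -0.59 and -0.16 in null arrays and by 0.038, 0.032 and -0.070 in controls, without overlap. With the epithelial level as a covariate the sign turned for Jag2 (-0.19), as it did for Dll4 (-0.17) and Dlk2 (-0.051), described next. The other Dll4 probe set, 1421826_at, was at 0.39 ± 0.21 (SE) in that fit.

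The vascular ligand was not lower on average in null, whereas the vessel markers and those of several other cell types were. Dll4, the Delta-like ligand of arterial and sprouting endothelium, read 5.56, 5.44 and 5.09 in null arrays, against 5.18, 5.20 and 5.37 in controls. Null arrays lay both above and below all controls. The difference was 0.11 ± 0.14 (SE), with a 95% interval of -0.22 to 0.45 and an adjusted p of 0.700 (limma). The 16 endothelial markers, such as Pecam1 and Cdh5, averaged 7.83, 7.85 and 8.12 in null arrays, against 8.42, 8.44 and 8.57 in controls. All 16 were lower on average in null, and 2 of them passed the threshold (limma), with differences of -1.13 to -0.17 and a median of -0.57. The drop was not confined to vessel markers: the list means of mesenchyme, mesothelium, leukocytes and erythroid cells differed by -0.59, -0.70, -0.92 and -0.63, each with all null arrays below all controls. The 6 arterial markers, such as Gja4 and Sox17, averaged 7.34, 7.39 and 7.88 in null arrays, against 8.18, 8.38 and 8.14 in controls. Relative to the endothelial mean of the same array, Dll4 deviated from its control mean by 0.96, 0.82 and 0.20 in null arrays and by -0.012, -0.011 and 0.023 in controls. Relative to the arterial mean it deviated by 1.205, 1.03 and 0.18 in null arrays and by -0.014, -0.20 and 0.21 in controls, where null 3 overlapped control 3. The second Dll4 probe set did not overlap on either scale. Relative to the endothelial mean it deviated by 0.72, 0.58 and 0.76 in null arrays, against 0.17, 0.20 and -0.38 in controls. Relative to the arterial mean these were 0.96, 0.78 and 0.74, against 0.17, 0.017 and -0.19. Dll4 itself differed by 0.11 and 0.14 in its probe sets, and the endothelial and arterial means by -0.55 and -0.69. These relative values thus mostly carry the fall of the marker means. The part of the vessel cells in the Dll4 values was not tested.

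The Dll4 values were dim readings. Both probe sets of Dll4 lay below the array medians, and they ordered the null arrays differently. The second one read 5.30, 5.17 and 5.62 in null arrays, against 5.35, 5.40 and 4.94 in controls, so that null 3 was its highest array and the lowest of the other probe set. With 3 against 3 arrays, an exact permutation test of 1 value cannot go below a two-sided p of 0.1.

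Epithelial and vascular ligands were then set against each other within each array. The deviation of Dll1 and Dll3 from their control means, averaged, minus that of Dll4, was 0.28, 0.58 and 0.54 in null arrays and 0.21, -0.044 and -0.16 in controls. The difference between the group means was 0.47, and it was 0.39 to 0.57 when single arrays were left out. The groups did not overlap, null 1 being closest to control 1. With the second Dll4 probe set the score was 0.52, 0.83 and -0.022 in null arrays and 0.020, -0.26 and 0.24 in controls, so that null 3 lay among the controls. The separation thus depended on the Dll4 probe set, while the difference of the means was 0.44 with the second one. This is a description of members chosen by name with earlier results known, and no p is given.

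**Figure D2:**
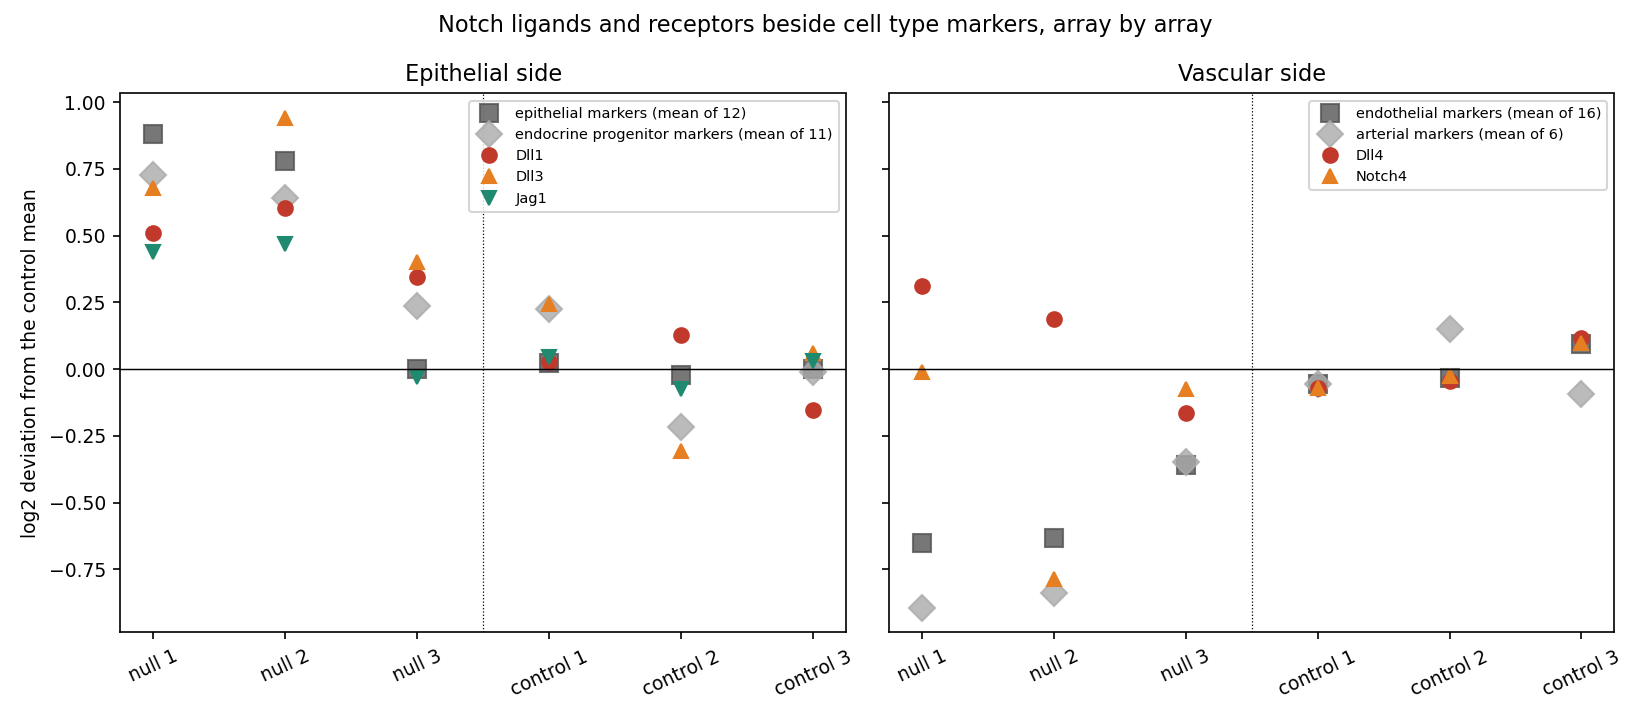
Log2 deviation from the control mean (vertical axis) in the 3 Hox6 null and 3 control arrays. The left panel shows Dll1, Dll3 and Jag1 with means of 12 epithelial and 11 endocrine progenitor markers, and the right panel Dll4 and Notch4 with means of 16 endothelial and 6 arterial markers. In null 3 the epithelial mean and Jag1 lie near 0, the endocrine progenitor mean at 0.23, and Dll1 and Dll3 at 0.35 and 0.40. Dll4 lies above the endothelial mean in every null array.

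The promoters of all 5 Delta-like and Jagged ligands are shown, since these are the ligands set against each other and against cell type markers here. The windows are RefSeq sequences of build GRCm38.p6, from 250 bases before to 50 bases from the transcript start, 5′ to 3′ along the gene, at the outermost annotated start of each gene except Jag2, for which the only window lies at another start. Capitals mark CAGCTG, a version of the E-box CANNTG bound by helix-loop-helix proteins.
Dll1 (chr17:15376883-15377182, minus strand): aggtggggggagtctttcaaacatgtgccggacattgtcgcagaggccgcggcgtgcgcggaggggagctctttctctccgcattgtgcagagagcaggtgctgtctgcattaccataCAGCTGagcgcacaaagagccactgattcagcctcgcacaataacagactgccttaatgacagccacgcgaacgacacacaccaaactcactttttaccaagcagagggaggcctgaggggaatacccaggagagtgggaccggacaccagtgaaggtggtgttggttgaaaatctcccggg
Dll3 (chr7:28301736-28302035, minus strand): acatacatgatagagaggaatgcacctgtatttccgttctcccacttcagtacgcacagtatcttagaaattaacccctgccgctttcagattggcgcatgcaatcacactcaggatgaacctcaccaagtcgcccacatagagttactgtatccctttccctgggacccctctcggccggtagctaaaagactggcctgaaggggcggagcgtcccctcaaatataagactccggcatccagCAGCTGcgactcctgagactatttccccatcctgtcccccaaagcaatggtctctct
Jag1 (chr2:137116471-137116770, minus strand): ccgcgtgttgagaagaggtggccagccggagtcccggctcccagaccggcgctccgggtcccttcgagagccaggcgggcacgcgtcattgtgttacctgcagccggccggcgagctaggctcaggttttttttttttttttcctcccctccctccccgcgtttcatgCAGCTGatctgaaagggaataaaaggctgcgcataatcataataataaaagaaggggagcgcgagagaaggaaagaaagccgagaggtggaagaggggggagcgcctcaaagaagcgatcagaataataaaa
Dll4 (chr2:119325534-119325833, plus strand): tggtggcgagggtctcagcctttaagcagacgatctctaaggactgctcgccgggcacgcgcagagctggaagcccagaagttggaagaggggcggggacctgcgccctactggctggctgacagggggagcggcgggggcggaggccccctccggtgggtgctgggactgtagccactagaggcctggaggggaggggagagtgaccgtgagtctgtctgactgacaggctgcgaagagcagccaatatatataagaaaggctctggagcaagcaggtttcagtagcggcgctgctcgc
Jag2 (chr12:112929446-112929745, minus strand): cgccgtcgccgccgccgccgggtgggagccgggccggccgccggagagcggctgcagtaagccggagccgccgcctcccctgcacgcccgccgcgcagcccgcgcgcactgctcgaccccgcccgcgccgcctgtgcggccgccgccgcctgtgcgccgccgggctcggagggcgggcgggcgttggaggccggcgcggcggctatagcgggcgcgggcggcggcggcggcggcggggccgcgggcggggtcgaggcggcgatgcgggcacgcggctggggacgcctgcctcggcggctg
Of the 10 members 12 such windows were found. CAGCTG occurred in 3 of them, those of Dll1, Dll3 and Jag1 shown here but not those of Dll4 and Jag2, starting 132, 7 and 82 bases before the transcript start. A further Dll1 window, at another start and not shown, did not hold it. Over all 32851 promoter windows of the same length 16.3% held it. The other motifs were searched on both strands as well. CAGATG, another E-box, was in 1 of the 12 windows, in Dlk2, against 17.2% of all windows. TGGGAA, the core recognised by Rbpj, and CCGGAA, the core of many ETS sites, were in 0 of the 12, against 25.6% and 14.9% of all windows. A match describes letters and shows no binding, and any E-box CANNTG, which overlaps both other E-box motifs, was in 6 of the 12 windows and in 72.3% of all.

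Dlk2, a membrane protein related to the ligands that lacks their receptor-binding domain, was read by dim probe sets. It read 5.14, 4.72 and 4.60 in null arrays, against 4.81, 4.62 and 4.44 in controls, with null 1 the highest array. The difference of 0.20 ± 0.17 (SE) became 0.036 (0.0363) without null 1. Its other probe set read 5.03, 4.88 and 4.33 in null arrays, against 4.60, 4.36 and 4.61 in controls, and both lie below the array medians.

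Among the receptors, Notch1 and Notch2 were higher in every null array. Notch2, a receptor of pancreatic progenitor epithelium, read 11.07, 11.01 and 10.91 in null arrays, against 10.77, 10.68 and 10.80 in controls. The arrays did not overlap, and the difference of 0.25 ± 0.095 (SE), or 1.19-fold, had an adjusted p of 0.270 (limma). Its other probe set read 9.99, 9.96 and 9.90 in null arrays, against 9.75, 9.60 and 9.56 in controls, again without overlap, and differed by 0.31 ± 0.10 (SE). Notch2 thus had the same separation in both of its probe sets, which no other member with more than 1 probe set had.

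Notch1, a receptor used in epithelium and endothelium alike, read 9.59, 9.32 and 9.22 in null arrays, against 9.09, 9.21 and 8.92 in controls. Null 3 exceeded control 2 by only 0.0045. The difference was 0.30 ± 0.14 (SE) with an adjusted p of 0.312 (limma), and without null 1 it was 0.19. Its dimmer probe set read 8.13, 7.70 and 7.50 in null arrays, against 7.41, 7.52 and 7.36 in controls, with null 3 among the controls. Relative to the epithelial mean of the same array, Notch1 deviated by -0.36, -0.53 and 0.14 in null arrays and Notch2 by -0.56, -0.52 and 0.16, against -0.16 to 0.16 and -0.042 to 0.047 in controls. In null 1 and null 2 both receptors exceeded their control means by less than the epithelial markers did. With the epithelial level as a covariate the differences were 0.13 ± 0.17 (SE) for Notch1 and 0.15 ± 0.12 (SE) for Notch2.

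Notch3, the receptor of mural cells and mesenchyme, differed in sign between its probe sets. Its brighter probe set read 8.20, 8.13 and 8.18 in null arrays, against 8.21, 8.40 and 8.10 in controls, a difference of -0.065 ± 0.11 (SE). The dimmer one read 8.09, 7.94 and 8.27 in null arrays, against 7.97, 8.22 and 7.78 in controls, and differed by 0.11 ± 0.15 (SE). In both probe sets control 2 was above control 1 and control 3. The brighter set carries the suffix that Affymetrix gives to probe sets matching more than 1 transcript. The 8 mural markers, such as Pdgfrb and Rgs5, averaged 8.54, 8.70 and 8.79 in null arrays, against 9.25, 9.13 and 9.08 in controls, and all 8 were lower on average in null with a median of -0.39. Single mural markers differed by -1.02 to -0.19, and the 95% interval of the Notch3 difference was -0.32 to 0.19. Relative to the mural mean of the same array, Notch3 deviated from its control mean by 0.59, 0.34 and 0.31 (0.315) in null arrays and by -0.12, 0.18 and -0.061 in controls, without overlap.

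Notch4, the endothelial receptor, was the member with the lowest difference, and null 2 set it. The brightest probe set read 6.48, 5.70 and 6.41 in null arrays, against 6.42, 6.46 and 6.59 in controls. Null 1 lay within the control range, null 3 just below it and null 2 far below it. The difference of -0.29 ± 0.21 (SE) had an adjusted p of 0.489 (limma) and became -0.043 without null 2. A second probe set, 1456263_at, read 6.22, 5.36 and 5.93 in null arrays, against 6.25, 6.39 and 6.25 in controls, without overlap, and null 2 was again the lowest. It differed by -0.46 ± 0.21 (SE), and by -0.22 without null 2. The endothelial markers were at nearly the same level in null 1 (7.83) and null 2 (7.85), so that the dip of Notch4 in null 2 was not shared by that marker mean. Relative to it, Notch4 deviated by 0.64, -0.15 and 0.28 in null arrays and by -0.014, 0.0075 and 0.0071 in controls. The third probe set of Notch4 read 2.24 to 2.66 in all arrays, among the dimmest 3.1% of probe sets, where a difference carries little weight.

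**Figure D3:**
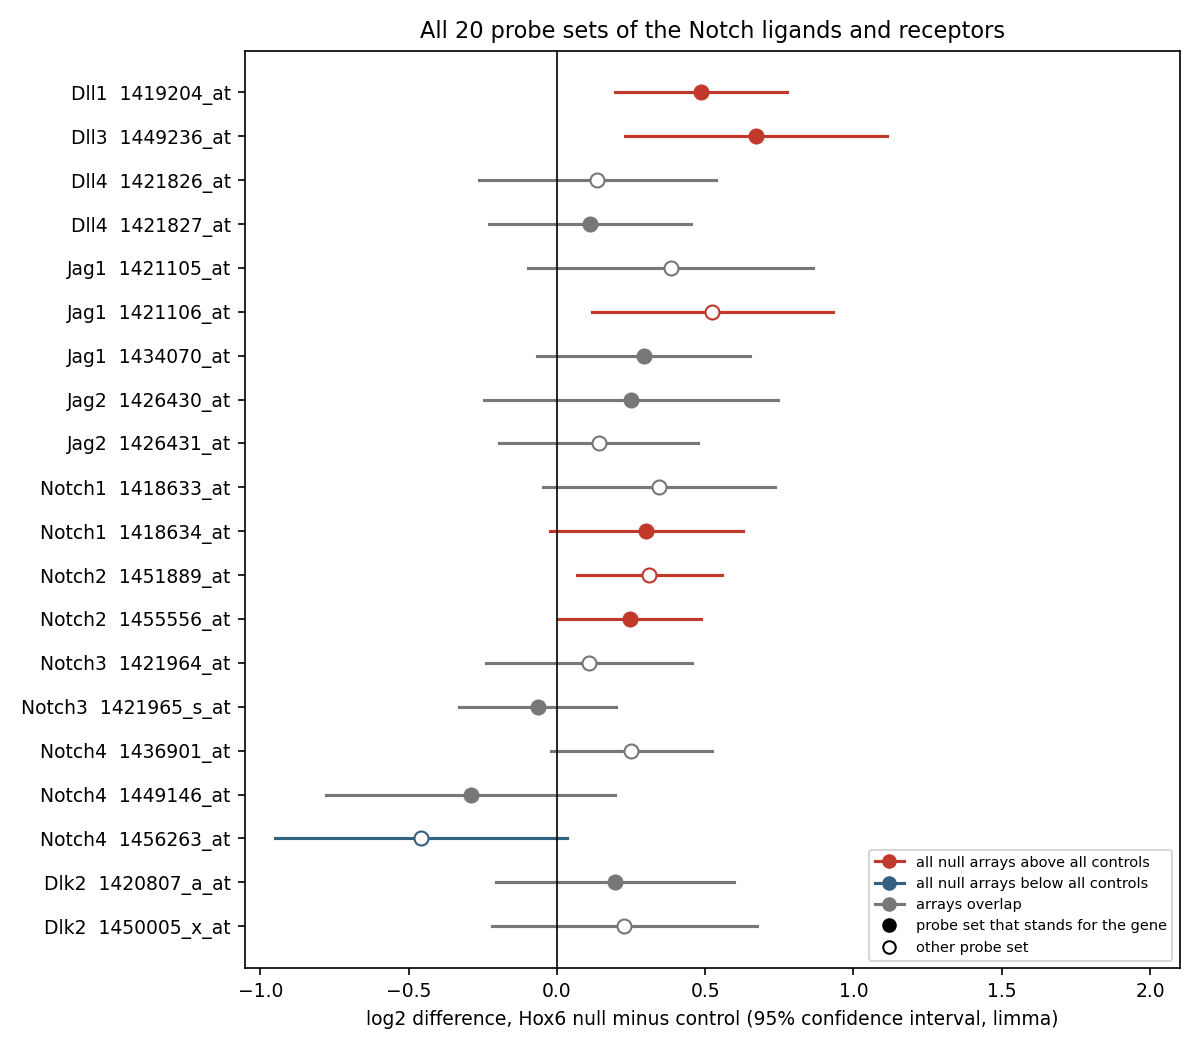
Log2 difference, Hox6 null minus control, with its 95% confidence interval (limma, fit over all probe sets) for all 20 probe sets of the 10 genes; filled points are the probe sets that stand for a gene and colour gives whether the arrays overlap. In 6 probe sets all null arrays lie above all controls and in 1, of Notch4, below them.

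Probe sets of the same gene mostly pointed the same way. Of 8 genes with more than 1 probe set, 6 had the same sign in all of them, the exceptions being Notch3 and Notch4. Of the 20 probe sets 17 were higher and 3 lower on average in null. Arrays did not overlap for 6 higher and 1 lower probe sets, that is 35.0%, against 22.0% of all 45037 probe sets (12.1% higher and 9.89% lower). In the fit over all probe sets none of the 20 passed (limma), where 0.00222% of all did, and 5 of the 20 had an unadjusted p under 0.05, against 15.0% of all.

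Leaving out null 3, which stood apart from the other null arrays, changed the calls. On the first principal component null 3 was the null array nearest to the controls. Dll1 then rose by 0.56 ± 0.12 (SE, adjusted p = 0.0416), Dll3 by 0.81 ± 0.18 (SE, adjusted p = 0.0456) and Jag1 by 0.45 ± 0.098 (SE, adjusted p = 0.0422), by limma over all genes. In that fit 8.44% of all genes passed, 1536 in number, so that 3 of 10 members stand against that share. Over probe sets 4.22% of all passed without null 3, among them 1421106_at of Jag1 as 1 of the 20. Without null 1, and without null 2, no gene on the array passed. The spread among null arrays exceeded that among controls for 7 of 10 members and for 73.5% of all genes.

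Genes whose pattern was most like that of a member were sought for the 4 members whose arrays did not overlap. The measure was the root mean square difference between the deviations from the control mean over the 6 arrays, among 9097 genes of at least median level. For Dll1 the nearest were Samd5 at 0.038, Gnptab, a phosphotransferase of lysosomal enzyme sorting, at 0.078 (0.0782), and Sox10, a neural crest and glial factor, at 0.078 (0.0784). For Dll3 the nearest were Sntb1 at 0.092, the cell cycle inhibitor Cdkn1a at 0.11 and Ebf3 at 0.13. Sox10 itself read 7.39, 7.32 and 7.08 in null arrays, against 6.86, 6.82 and 6.72 in controls. The mean of the neural crest and neuron list, which holds Sox10, overlapped between the groups. Of its 9 measured genes 3, Sox10 among them, did not overlap. Notch1 was nearest to Plekhh1 (0.041), Tspan15 (0.042), a tetraspanin, and Itga6 (0.062), an integrin of epithelial basement membrane contact. Notch2 was nearest to Cdk2ap2 (0.016), R3hdm2 (0.030) and Tmem94 (0.032).

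No other gene of the pathway passed. Of 56 further listed genes 51 were measured, 0 passed in either direction (limma), 5 or 9.8% had an unadjusted p under 0.05 against 17.0% of all genes, and 29 were higher and 22 lower on average in null. Their median difference was 0.04 (0.0352). Arrays did not overlap for 6 higher and 5 lower genes, 21.6% of the list against 23.8% of all genes. Without null 3 there were 3 that passed, 5.88% against 8.44% of all genes, all lower, the target genes Hey2 and Heyl and the ubiquitin ligase partner Dtx3l.

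Genes that act on ligand and receptor before the nucleus mostly overlapped between the groups. The 5 glycosylation genes, among them the fringe enzymes Lfng, Mfng and Rfng, had differences of -0.26 to -0.014, with Pofut1, which adds fucose to Notch, at -0.26 ± 0.14 (SE), Mfng at -0.11 and Poglut1, which adds glucose, at -0.092. The 4 genes of ligand endocytosis lay between -0.099 and 0.20, with Neurl1a at 0.20 ± 0.14 (SE), Neurl1b at -0.099 and Mib1, the main ubiquitin ligase of ligands, at 0.089. Of the 8 measured genes of receptor cleavage, which include the gamma-secretase subunits, Furin was at 0.18 ± 0.10 (SE), Aph1a at -0.11 and Psen2 at 0.077. Furin was the only 1 of these 17 genes with arrays that did not overlap, while 23.8% of all genes had such arrays. Among other ligand-like proteins, Dner was at 0.62 ± 0.30 (SE) with overlap, Egfl7, an endothelial secreted protein, at -0.13 without overlap, and Dlk1 at 0.084.

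Of 31 nuclear, feedback and target genes 9, or 29.0%, had arrays without overlap, against 23.8% of all genes. Of the 11 measured genes of the nuclear complex, the acetyltransferases Ep300 and Kat2a were at -0.31 ± 0.13 (SE) and 0.22 ± 0.11 (SE), both without overlap, and the coactivator Maml1 at -0.26 with overlap. Rbpj itself read 7.86, 8.29 and 8.30 in null arrays, against 8.32, 8.32 and 8.29 in controls, and was named after its values were seen. Of the 11 inhibitors and turnover genes, Nrarp, a feedback inhibitor that Notch induces, read 8.73, 8.68 and 8.43 in null arrays, against 8.35, 8.01 and 8.20 in controls. That difference was 0.42 ± 0.13 (SE) with an adjusted p of 0.215 (limma). Dtx4 was at 0.24 ± 0.096 (SE) without overlap and Nle1 at 0.51 ± 0.24 (SE) with overlap. Of the 9 Hes and Hey genes, Hey2 was at -0.94 ± 0.15 (SE, adjusted p = 0.0965, limma), Heyl at -0.57 ± 0.15 (SE) and Hes7, a dim probe set, at 0.32, all without overlap. Hey2 and Heyl were the only 2 of the 9 that were lower on average in null. The other 7 were higher, all but Hes7 with overlap, and the median difference of the list was 0.18. Of these, Hes2, Hes3 and Hes5 also lay below the array medians. The arterial and mural list means differed by -0.69 and -0.48. The part of vessel cells in the Hey2 and Heyl values was not tested.

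**Figure D4:**
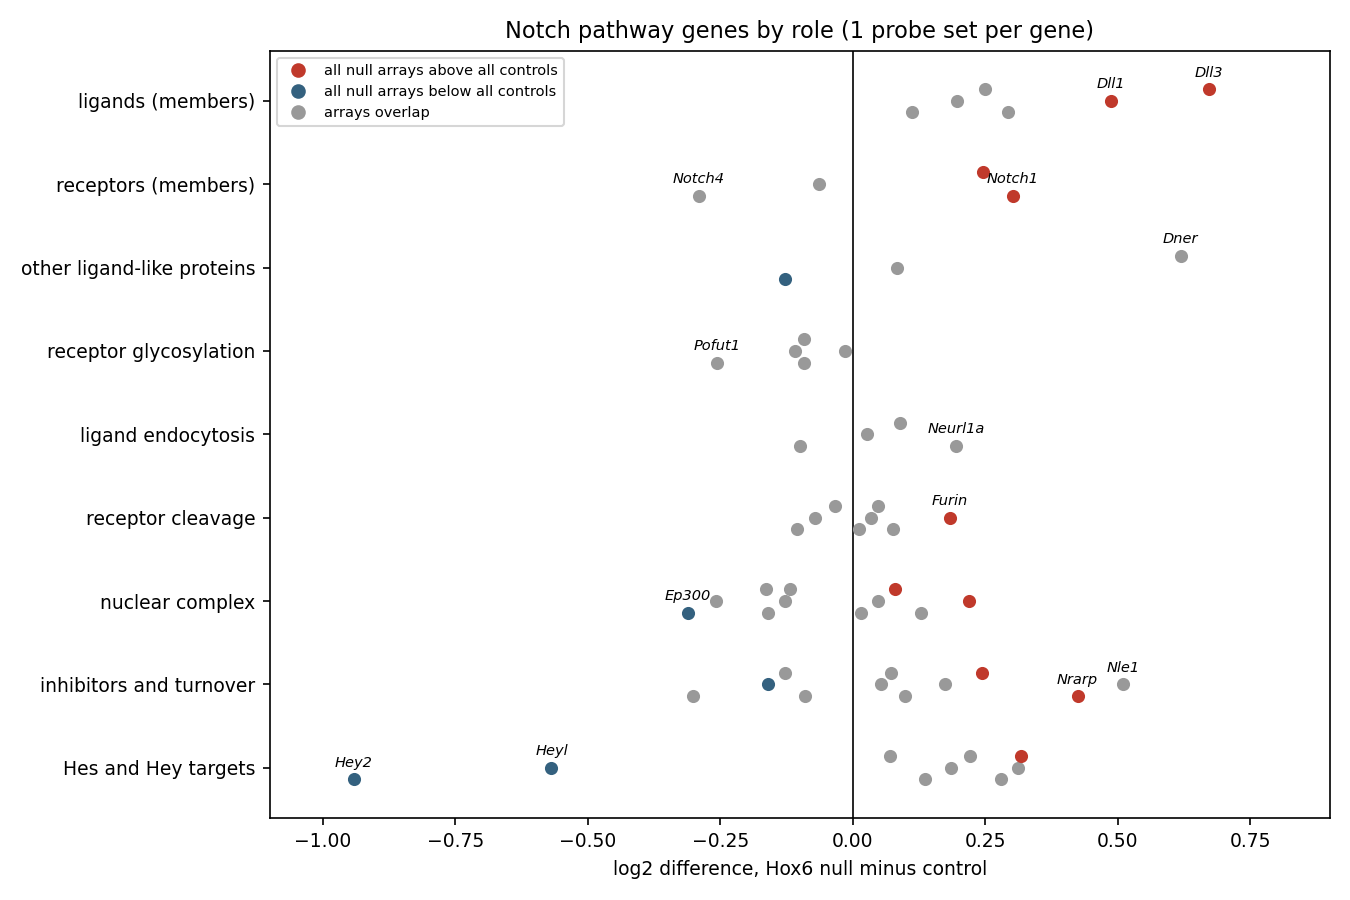
Log2 difference, Hox6 null minus control (horizontal axis), of the 10 members and 51 other Notch pathway genes by role; each point is a gene, coloured where null and control arrays do not overlap. The ligands all lie right of 0, as do 7 of the 9 Hes and Hey genes. The lowest points are Hey2 and Heyl at -0.94 and -0.57.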

How the data were processed

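RNA of 3 Hox6 null and 3 control samples of whole pancreas (E12.5) was amplified from 10 ng and hybridised to Affymetrix arrays, per the labels' protocols. The authors deposited log2 values, 1 per probe set and array. RMA, affy and limma are named, without versions or roles, per the submitters' processing notes. The genome build is not given in the sources used here. Of 45101 probe sets, 64 array controls were left out, 34945 had 1 gene symbol, 932 several and 9160 none listed. In the RefSeq table (GRCm38.p6) the Entrez identifiers of 34741 were found, with every symbol current.

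Genotype was fitted with limma 3.58.1 (lmFit, eBayes, R 4.3.3), two-sided, over 45037 probe sets and over 18193 genes, each by its brightest probe set. Errors of differences are moderated standard errors. The fit was tested on simulated data. Members and lists were chosen with earlier results of these data known. Of pathway lists, up to 3 genes by smallest p were named. Same-numbered arrays correlated at 0.14, 0.0049 and 0.062 in their deviations from group means. These values do not settle whether the numbers are pairs, and the main fit did not treat them as pairs. Filters, normalization, variance prior, array weights, block, epithelial covariate, minimum change, probe set choice and left-out arrays were alternatives. The number of arrays limits the precision.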

Additional observations from a re-analysis of the deposited data

How the results depend on the processing

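The count of 0 members past the threshold held in every alternative except that without null 3, for genes (0 to 3 when single arrays were left out), for probe sets (0 to 1) and for the other pathway genes (0 to 3). Of 164 values of member genes under alternatives 154 kept sign and side, 3 became called without null 3 and 7 turned sign; of 143 values of the other member probe sets these were 138, 1 and 4. With the epithelial level as a covariate the sign turned for Dll4 (-0.17), Jag1 (-0.027), Jag2 (-0.19) and Dlk2 (-0.051), and for probe sets of Jag1 (1421105_at, -0.058), Jag2 (1426431_at, -0.093) and Dlk2 (1450005_x_at, -0.20). That fit rests mostly on null 3, as the epithelial mean lay above the controls only in null 1 and null 2. Notch3 turned to 0.022 as the mean of its probe sets and to 0.11 with its more variable one, and lay between -0.13 and 0.015 when single arrays were left out. The second Dll4 probe set (1421826_at) lay between -0.0057 and 0.23 in those fits. The cause was not tested.

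The counts over all genes and all probe sets, 13 and 1, moved to 1 and 0 with repeated quantile normalization and with a minimum fold change of 1.2, to 74 and 63 with an intensity trend and robust prior, to 155 and 41 with array weights and to 31 and 15 with the epithelial covariate. All genes gave 8 with median centring, 20 with a mean level of at least 5 and 1 with the most variable probe set of a gene, and all probe sets gave 5 with a mean level of at least 7. Without single arrays they were 0 to 1536 genes and 0 to 1902 probe sets. With the replicate block 0 genes passed, members included; 5 of 6 arrays correlated best with their own number. Dlk2 and the dimmest Notch4 probe set gave no value at the lower filter, and Dll3, Dll4, Jag2 and Notch4 none at the higher one. Probe sets near or below the array medians, as for Dll3, Dll4 and Dlk2, limit what can be seen.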
